A study of Mus musculus with 25 samples.

Results

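The nuclear genes of the respiratory chain encode most subunits of the complexes with which mitochondria oxidise NADH and succinate and make ATP. They were taken from the table of gene counts as all symbols beginning with Nduf, Uqcr, Atp5 or Cox followed by 4 to 8, together with Sdha, Sdhb, Sdhc and Sdhd, without Cox6b2 and Cox8c. This gave 90 of 24358 genes, of which 45 fell by name under complex I, 4 under complex II, 8 under complex III, 16 under complex IV and 17 under complex V. Of these, 81 encode subunits or their isoforms and 9 are assembly factors or related proteins (Ndufaf1 to Ndufaf7, Atp5s and Atp5sl). The class follows the name, so that Ndufa4, which was named as a complex I subunit but is found in complex IV, is counted under complex I.

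The 25 libraries, from 5 conditions, hold RNA of mouse sperm collected from the cauda epididymis. The RNA ends were made uniform before adapters were joined, so that RNAs with different ends could be included. Males of the strain C57BL/6J whose mothers received corn oil vehicle formed C57 control (C57.CTL.F1), and males whose mothers received di-(2-ethylhexyl) phthalate (DEHP), a plasticiser, in corn oil at 300 mg/kg/day from embryonic day 9 to 19 formed C57 DEHP (C57.D300.F1). Sons of exposed C57BL/6J males and unexposed females formed C57 F2 (C57.D300.F2), the second generation, and were not themselves exposed in the womb. Males of the strain FVB/N from vehicle and DEHP mothers formed FVB control (FVB.CTL.F1) and FVB DEHP (FVB.D300.F1). Each condition had 5 libraries, and the animals were 14 weeks old by the sample descriptions. The 10 libraries of C57 control and C57 DEHP were marked as re-analysed, and the 15 others were made for the study, so that exposure within each strain was compared inside 1 set of libraries, whereas generation and strain were compared across both sets and cannot be told apart from them.

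Complexes I and II pass electrons from NADH and succinate to ubiquinone, complex III passes them to cytochrome c, and complex IV passes them to oxygen. Complexes I, III and IV move protons across the inner membrane as they do so, and complex V, the ATP synthase, uses their return to make ATP. A few subunits are encoded in mitochondrial DNA, while all members described here are transcribed in the nucleus, and sperm carry their mitochondria in the midpiece of the tail.

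The values are the authors' counts, 1 per gene and condition, estimated by Cuffdiff from all libraries of the condition together, with options, scaling between libraries among them, that are not given in the sources used here. There is therefore no spread between libraries and no test, and each value is given as the authors' condition value. The model behind the counts also gives a variance, whose square root is called the model SD below. Its median over the members was 0.255, 0.248, 0.238, 0.242 and 0.241 times the count in C57 control, C57 DEHP, C57 F2, FVB control and FVB DEHP. All values for the 5 conditions are given in this order. A ratio is log2 of 2 counts with 1 added to each, for genes with at least 10 counts in 1 of both conditions, and a gene is said to rise or fall where this ratio reached 1 or -1. All 90 members had a valid estimate in every condition. Scaling the conditions to equal totals instead moved the median of all genes by 0.15, -0.13, 0.32, 0.17, 0.19 and -0.10 in the 6 planned comparisons, in the order in which they follow, and where this bears on a result the value relative to all genes is given.

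The summed count of the members was 69937, 54332, 39205, 46311 and 40874. It was highest in C57 control and lowest in C57 F2, and within each strain the DEHP condition of the first generation lay below its vehicle condition. Counts over all genes summed to 8602900, 7748902, 6921688, 7568129 and 8278486, so that the members made up 0.813, 0.701, 0.566, 0.612 and 0.494% of all counts. On this scale the order changed at its lower end, where FVB DEHP lay below C57 F2. The median count of a member was 533, 428, 317, 357 and 324, and 4, 2, 3, 5 and 4 members had under 10 counts. Of 89 members with at least 10 counts in any condition, 71 had their highest value in C57 control, against 23.9% of all 17701 genes so counted, and 39 and 36 had their lowest value in C57 F2 and FVB DEHP, against 15.6% and 25.3%. In bulk RNA, fewer cells of a type and less RNA per cell cannot be told apart.

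**Figure D1:**
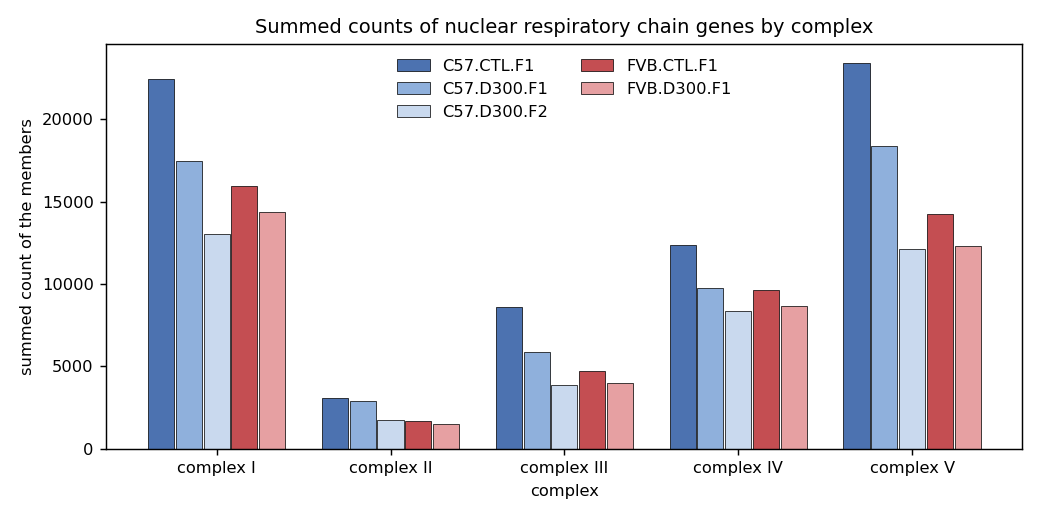
Summed counts of the members of complexes I to V (y axis, counts, from 0) in the 5 conditions (bars, 1 pooled value each, without error). In every complex C57 control has the highest bar, and complexes I and V hold most of the counts, with 22452 and 23409 in C57 control.

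Summed over its members, complex I had 22452, 17446, 13041, 15958 and 14387 counts. Complex II had 3112, 2883, 1759, 1682 and 1529 and complex III had 8588, 5879, 3862, 4752 and 3973. C57 control was highest for all 3 of them, and FVB DEHP was lowest for complex II, whereas C57 F2 was lowest for complexes I and III. Complex IV had 12375, 9752, 8383, 9662 and 8699 counts and complex V had 23409, 18371, 12159, 14257 and 12286. The complexes thus kept the order of V, I, IV, III and II in C57 control and C57 DEHP, while in the other conditions complex I stood above complex V. Of the members' counts, complex IV took 17.7% in C57 control and 21.4% in C57 F2, and complex III took 12.3% and 9.85%.

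Levels can be set against each other only per length, here as counts per kilobase of merged exons. The median subunit of complex I had 399, 288, 228, 283 and 236 counts per kilobase and that of complex II had 418, 352, 181, 244 and 215. Complex III had a median of 902, 747, 566, 502 and 468, complex IV of 797, 675, 569.7, 525 and 460.3 and complex V of 916, 725, 594, 579 and 529 counts per kilobase. Per length, then, a typical subunit of complexes III, IV and V stood above a typical subunit of complexes I and II in all 5 conditions. The highest level in C57 control was that of Cox4i1, the common isoform of a complex IV subunit that binds regulatory nucleotides, with 5907 counts per kilobase. It was followed by Uqcrh, the hinge protein of complex III (4919), Atp5b, the catalytic beta subunit of the ATP synthase (3463), and the complex I subunit Ndufa2 (3169.8). With model SDs of 1938, 1468, 1505 and 913 counts per kilobase, these neighbours do not differ beyond their model error. The order depends on the transcripts chosen. With exons of all annotated transcripts merged, Ndufa2 was highest, Cox4i1, Uqcrh and Atp5b came to 2915, 2175 and 1566 counts per kilobase, and Cox6c and Atp5h left the leading 3 of complexes IV and V, so that no rank among these genes is read from the levels.

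The cells behind these RNAs were looked at through marker lists. All 12 sperm and spermatid markers had at least 10 counts in every condition, and they summed to 98113, 82668, 33549, 8417 and 10072, with Smcp, a protein of the mitochondrial capsule, as the most abundant in the C57BL/6J conditions (35149 in C57 control) and Odf1 in the FVB/N conditions (2589 in FVB control). The 10 striated muscle markers summed to 2974, 6388, 3157, 1230.4 and 668, led by Myh4 or Acta1, with Myh6 at 3 counts or fewer in C57 control and C57 DEHP. The 5 smooth muscle markers summed to 17808, 10048, 7680.2, 11637 and 7737, led by Acta2. By these sums, sperm markers were highest in C57 control, somewhat lower in C57 DEHP and far lower in the 3 newly made conditions. The striated muscle sum peaked in C57 DEHP, and the smooth muscle sum in C57 control.

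Leukocyte markers (5 genes) summed to 32181, 39851, 48919.9, 35496 and 33285, most of it Cd52, which the epididymis also makes. The 10 liver markers summed to 201847, 178285, 4818, 1118 and 738, led by Alb. The 8 seminal vesicle markers summed to 238142, 695, 1259, 2137 and 2027, led by Svs4 in C57 control and by Svs1 elsewhere, with 3 of them (Svs3a and Svs6 among them) at 3 counts or fewer in C57 DEHP, FVB control and FVB DEHP. Liver RNA was thus far higher in the re-analysed libraries, and seminal vesicle RNA in C57 control. Epididymal epithelium (10 genes) summed to 108555, 265, 249, 169 and 258920, where Crisp1 supplied 108274 counts in C57 control and 219328 in FVB DEHP and had no valid estimate in the other conditions, where Gpx5 led the list. Without Crisp1, it was FVB DEHP that stood out, with all 9 other genes higher than in FVB control by at least 1 log2 unit, while Cst11 was at 3 counts or fewer in the other 4 conditions. Blood (5 of 6 genes in the table) summed to 2193, 1854, 2981, 1257 and 6086, led by Alas2 in C57 control and by Hbb-bs elsewhere, with Hba-a1 below 3 counts throughout. Adipocyte markers (3 genes) summed to 550.2, 378, 417, 433 and 340.2, led by Fabp4. Brown fat (3 genes) summed to 701, 860.1, 18.3, 12.4 and 2.60, most of it Elovl3, and its defining gene Ucp1 had 9.78, 1.21, 2.83, 2.14 and 0.47 counts. Cidea was under 3 counts, the limit of detection, in all 5 conditions and Ucp1 in all but C57 control, while Elovl3 had 691, 859, 14.8, 10.2 and 2.13 counts. The part of any of these cells in the results on the respiratory chain was not tested.

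Exposure in the womb was first compared within C57BL/6J. The members' median log2 ratio of C57 DEHP to C57 control was -0.24, against -0.01 for all 16825 genes tested and -0.04 for those with at least 100 counts. Of 88 members tested, 78 had the lower value in C57 DEHP, against 51.7% of all genes, and with equal totals 63 did, against 30.4%. Most of these differences were small, since 2 members rose (Cox6a2 and Cox7a1), where 1.09% of all genes did, and 1 fell (Uqcrh), where 1.15% did. The medians were -0.29 for complex I, -0.22 for complex II, -0.23 for complex III, -0.14 for complex IV and -0.23 for complex V, and complex IV came to 0.01 with equal totals. Relative to all genes the members' median was -0.23, and the difference exceeded its model SD downwards in 7 members and upwards in 2, against 526 and 580 of all 16825 genes. In the same comparison the median was -0.78 for smooth muscle markers, 1.29 for striated muscle, -0.34 for liver, -10.73 for seminal vesicle, -0.65 for adipocytes, 0.35 for leukocytes, -0.15 for sperm, -0.22 for blood and -0.23 for epididymal epithelium.

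Among members with at least 100 counts, the 3 lowest ratios were those of Uqcrh, Ndufb11 and Uqcr10. Uqcrh fell by 1.18 on the log2 scale, with 2691, 1186, 919, 1501 and 1159 counts in the 5 conditions, a difference of -1505 counts beside a model SD of 858. Ndufb11, a membrane subunit of complex I encoded on the X chromosome, had 2089, 1090.4, 823, 1454 and 1239 counts and a log2 ratio of -0.94. Uqcr10, a small subunit of complex III, had 1306, 708, 413, 633 and 538 counts and a log2 ratio of -0.88. All 3 were highest in C57 control and lowest in C57 F2, with the FVB/N conditions between these ends. At the other end, Sdha, Cox5a, Atp5a1 and Ndufaf3 had log2 ratios of 0.06, 0.11, 0.07 and 0.08, and 10 of 88 members did not have the lower value there.

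Within FVB/N, the median of FVB DEHP to FVB control was -0.15 over 86 members tested, against 0.00 for all 16471 genes. The value was lower in 73 members, against 49.4% of all genes, and 0 members rose and 0 fell, where 2.16% and 0.619% of all genes did. Complexes I to V had medians of -0.15, -0.09, -0.20, -0.14 and -0.19. The range ran from -0.51 for Ndufa12 to 0.53 for Ndufs5. The difference exceeded its model SD downwards in 1 member and upwards in 0, against 312 and 619 of all 16471 genes, so that most members had slightly lower values and none passed the threshold. In the same comparison the median was -0.67 for smooth muscle markers, -0.76 for striated muscle, -0.61 for liver, -0.46 for seminal vesicle, -0.27 for adipocytes, -0.10 for leukocytes, 0.43 for sperm, 2.23 for blood and 7.81 for epididymal epithelium.

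Set side by side, 68 of 85 members tested in both strains had the lower value after DEHP in both, against 25.8% of 15720 genes, and the comparisons share no libraries. The log2 ratio in FVB/N minus that in C57BL/6J had a median of 0.18 over the members, against 0.02 over all genes, and 1 member passed 1 log2 unit, where 508 of the 15720 genes were higher and 357 lower by as much. This was Ndufs5, with 78.1, 54.3, 29.4, 18.6 and 27.2 counts, which had a ratio of -0.52 in C57BL/6J and 0.53 in FVB/N, with differences of -23.8 and 8.64 counts that lie within their model SDs of 27.5 and 15.4. Uqcrh, Atp5k and Ndufb11 followed, with differences between strains of 0.81, 0.73 and 0.71. The difference between strains was not tested, since each strain has 1 value per condition.

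**Figure D2:**
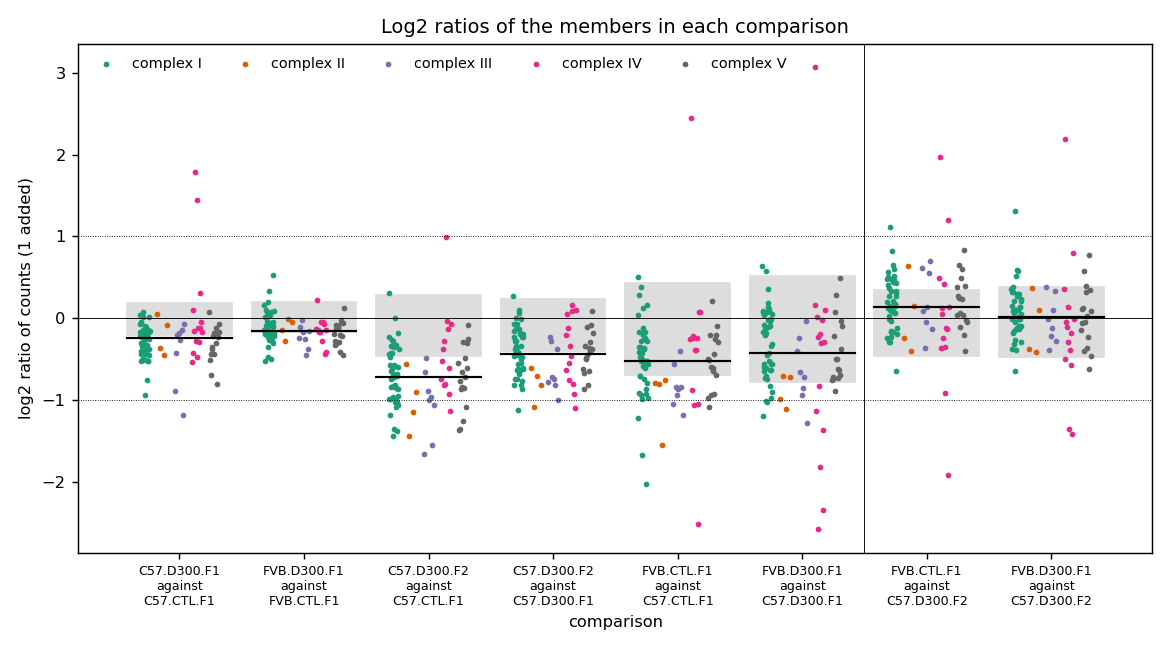
Log2 ratios of the members (y axis, 1 added to each count) in the comparisons named on the x axis. Each point is a gene, coloured by complex, black lines are the members' medians, grey bands run from the 25th to the 75th percentile of all genes tested, and dotted lines mark 1 and -1. The medians lie between -0.71 and -0.15 in the 6 planned comparisons and at 0.15 and 0.02 in the 2 on the right, which compare strains among newly made libraries.

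The second generation was set against the same vehicle condition, so that this comparison shares C57 control with the first and also crosses the library sets. The median of C57 F2 to C57 control was -0.71 over 87 members tested, against -0.04 for all 17114 genes. The value was lower in 84 members, against 53.2% of all genes, 0 members rose and 18 fell, where 4.1% and 10.2% of all genes did. Scaling by the upper quartile moved the median of all genes by 0.22 here. Relative to all genes the members' median was -0.67, and with equal totals and the upper quartile 8 and 9 members fell, where 6.42% and 7.35% of all genes did, and 1 rose, where 9.21% and 7.21% did. The difference exceeded its model SD downwards in 56 of the 87 members, against 3110 of all 17114 genes.

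By complex, the medians in this comparison were -0.69 for complex I, -1.02 for complex II, -0.98 for complex III, -0.52 for complex IV and -0.71 for complex V. Of the members, 8 of 45 fell in complex I, 2 of 4 in complex II, 3 of 8 in complex III, 1 of 13 tested in complex IV and 4 of 17 in complex V. Complexes II and III thus had the lower medians and complex IV the least low, and every scaling kept all 5 medians below 0. The median of complex IV ran from -0.56 to -0.13 over all settings. The counts of falls by complex are on the deposited scale. With equal totals, the 8 members that fell against C57 control were Ndufaf6, Ndufb11, Ndufs5, Sdhb, Uqcr10, Uqcrh, Atp5b and Atp5c1. The other falls of members named below for C57 F2 against C57 control did not reach the threshold with equal totals. Directly against C57 DEHP, the median was -0.44 over 88 members, against -0.05 for all 17133 genes, with 79 members lower, against 54.4% of all genes, and 32 lower beyond their model SD, against 2696 of the 17133 genes. Here 0 members rose and 3 fell (Ndufaf6, Cox7c and Sdhb), where 2.69% and 8.35% of all genes did, and with equal totals or the upper quartile 0 fell and 1 rose, where 6.34% and 6.06% of all genes fell and 4.38% and 4.63% rose. The medians of complexes I to V were -0.41, -0.76, -0.73, -0.40 and -0.41. In the same comparisons the sperm markers had medians of -1.12 and -0.99, the smooth muscle markers of -1.11 and -0.33, the striated muscle markers of 0.24 and -0.80, the liver markers of -5.49 and -5.12 and the seminal vesicle markers of -8.95 and 2.50. The leukocyte markers had medians of 0.03 and -0.72, with 4 of 5 lower against C57 DEHP and Cd52 higher. The blood markers had medians of 0.20 and 0.51 and the adipocyte markers of -0.52 and 0.12. The part of all these markers in the members' values was not tested.

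Between strains, the vehicle conditions had a median of -0.52 for FVB control to C57 control over 87 members, against -0.03 for all 17086 genes, and 77 were lower, against 51.8%. Of the members 1 rose (Cox4i2) and 10 fell, where 7.5% and 18.8% of all genes did, and with equal totals and the upper quartile 5 and 6 fell, against 15.9% and 16.3% of all genes. Although few members reached 1 log2 unit, the difference exceeded its model SD downwards in 42 of the 87 members, against 4328 of all 17086 genes. The DEHP conditions, FVB DEHP to C57 DEHP, had a median of -0.43 over 89 members, against -0.07 for all 17377 genes, and 69 were lower, against 53.3%. Again 1 rose (Cox4i2) and 10 fell, where 12% and 19.9% of all genes did, and with equal totals and the upper quartile 13 and 6 fell, against 22.0% and 17.4%. Here the difference exceeded its model SD downwards in 38 of the 89 members, against 4831 of all 17377 genes. By complex the vehicle comparison gave medians of -0.47, -0.79, -0.85, -0.25 and -0.51, and the DEHP comparison gave -0.20, -0.85, -0.68, -0.28 and -0.49. Complexes II and III had the lowest medians in both. Over all settings the median of complex IV ran from -0.31 to -0.06 in the vehicle comparison. That of complex I ran from -0.29 to -0.06 in the DEHP comparison. In the vehicle and DEHP comparisons the liver markers had medians of -7.31 and -7.60, the sperm markers of -3.27 and -2.71, the seminal vesicle markers of -9.98 and 1.92, the striated muscle markers of -1.34 and -2.93, the smooth muscle markers of -0.59 and -0.52 and the epididymal markers of 0.08 and 7.74. The leukocyte markers had medians of -0.89 and -1.88, with 4 of 5 lower in each comparison and Cd52 higher. The blood markers had medians of -0.81 and 1.98 and the adipocyte markers of -0.33 and -0.15.

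Both of these comparisons cross the library sets. Within the newly made libraries, strains can be compared only against the second generation of C57BL/6J, a comparison chosen after seeing the data. The median of FVB control to C57 F2 was 0.15 over 88 members, with 59 higher and 29 lower, where 50.4% of all genes were lower, and 3 rose and 1 fell, where 4.2% and 11.6% of 16969 genes did. That of FVB DEHP to C57 F2 was 0.02, with 45 higher and 43 lower, where 50.8% of all genes were lower, and 2 rose and 2 fell, where 6.98% and 10.6% of 17122 genes did. Equal totals moved the median of all genes by -0.13 and -0.26 in these comparisons, and relative to all genes the members' medians were 0.15 and 0.03. As a share of all counts, the members of FVB DEHP lay below those of C57 F2. The lower medians of FVB/N relative to all genes were thus seen against the re-analysed C57BL/6J conditions, and strain, generation and library set cannot be told apart. Cox4i2 and Cox7b2 kept their directions, with log2 ratios of 1.97 and -1.91 for FVB control and 2.19 and -1.41 for FVB DEHP.

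**Figure D3:**
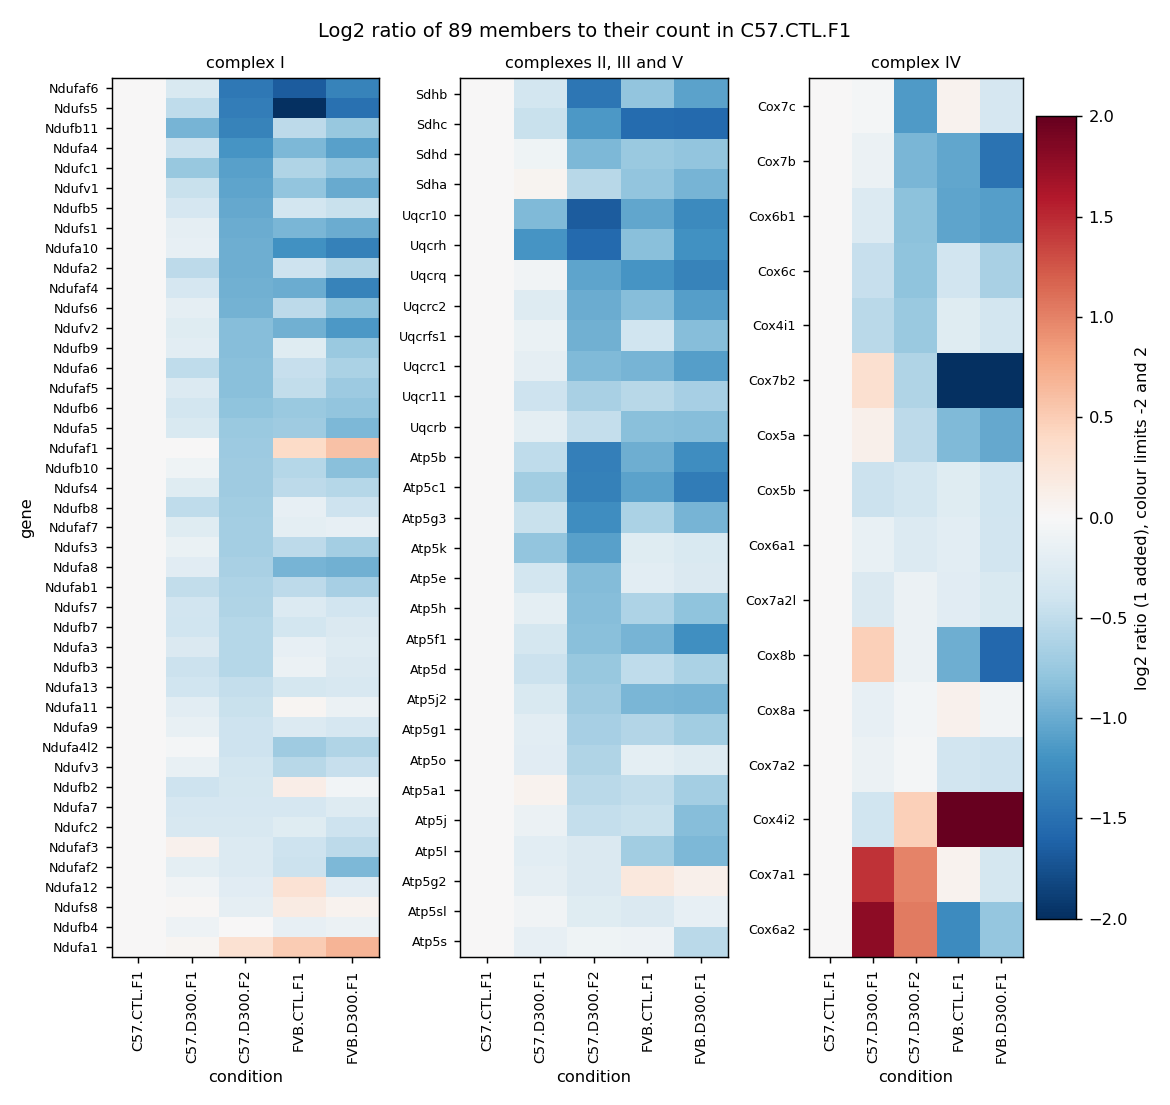
Log2 ratio of 89 members (rows, by complex and sorted within it by C57 F2) to its own count in C57 control (first column, 0 by construction) in the 5 conditions (columns), with 1 added to each count. Most rows are blue in C57 F2 and in the FVB/N conditions, Ndufa1 runs the other way, and tissue isoforms of complex IV, several of them under 10 counts, differ from the other rows.

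Complex I takes electrons from NADH. Its 7 core subunits encoded in the nucleus, among them those that carry the flavin and the iron-sulfur clusters, summed to 5224, 4222, 2906, 3191 and 2824 counts, and their medians in the comparisons, in the order in which these were described, were -0.25, -0.17, -0.86, -0.54, -0.79 and -0.56. Ndufv1, which binds NADH, had 693, 509, 332, 401 and 346 counts. It fell by 1.06 on the log2 scale in C57 F2 against C57 control, but did not reach the threshold with equal totals. Ndufs8 stood apart within the core with 237, 241, 210.5, 266 and 249 counts, a nearly level row. Ndufs7 had 424, 327, 280.1, 349 and 326 counts, but its model SD was larger than the count in each condition (1292 in C57 control), as was that of Ndufa4l2 and of the ATP synthase subunit Atp5d, and no direction is read from them.

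Among the accessory subunits, Ndufa4 had 1744, 1289, 772, 932 and 824 counts and fell by 1.18 in C57 F2 against C57 control, as did Ndufb11 by 1.34, Ndufc1 by 1.08 and Ndufb5 by 1.02. Ndufa10 had 657, 584, 332, 283 and 256 counts and fell in both strain comparisons, by 1.21 and 1.19. Ndufs5, at chr4:123712710-123718202, fell by 2.02 in FVB control against C57 control and by 1.38 in C57 F2 against C57 control. The first of these differences was -59.5 counts beside a model SD of 24.8. Ndufa10 and Ndufs5 were thus lower in all 3 newly made conditions than in both re-analysed ones. Ndufa1, a small subunit encoded on the X chromosome (chrX:37187588-37191163), ran against the others with 297, 305, 369.6, 423 and 475 counts, lowest in C57 control and highest in FVB DEHP. Its log2 ratios were 0.31 in the second generation and 0.51 and 0.63 between strains, below the threshold. Ndufb4 was the most level member, with 222, 206, 222, 198 and 204.

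The assembly factors Ndufaf1 to Ndufaf7 help to build complex I and do not stay in it. Ndufaf6 had 60.3, 48.4, 21.7, 18.3 and 23.3 counts and fell in C57 F2 and FVB control against C57 control, by 1.43 and 1.66, and in C57 F2 and FVB DEHP against C57 DEHP, by 1.12 and 1.02. Ndufaf1 had 79.3, 80.2, 47.5, 104 and 119.9 counts, higher in both FVB/N conditions, and rose against C57 F2 with ratios of 1.11 and 1.32. Together with Atp5s and Atp5sl, the 9 assembly factors had medians of -0.20, -0.11, -0.68, -0.44, -0.42 and -0.44 in the comparisons in the same order, near those of the subunits in each comparison.

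Complex II, succinate dehydrogenase, also belongs to the tricarboxylic acid cycle and has no subunit encoded in mitochondrial DNA. Sdha, which carries the flavin, had 1592, 1658, 1087, 924 and 838 counts. Sdhb, the iron-sulfur subunit, had 582, 452, 214, 335 and 277 counts and fell in C57 F2 by 1.44 against C57 control and by 1.07 against C57 DEHP. Sdhc, a membrane anchor, had 537, 395, 242, 184 and 183 counts and fell by 1.14 in C57 F2 against C57 control and by 1.54 and 1.11 in the FVB/N conditions. Sdha alone of the 4 had a value in C57 DEHP above that in C57 control on the deposited scale, where Sdhd also turned above 0 with equal totals (0.07), and all 4 were lower in the newly made conditions than in the re-analysed ones. The other anchor, Sdhd, had 401, 379, 215, 239 and 231 counts.

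In complex III, Uqcr10 fell by 1.66 and Uqcrh by 1.55 in C57 F2 against C57 control, the largest falls of any member there, and Uqcrq fell by 1.06. Uqcrq, which binds ubiquinone, had 787, 752, 378, 346 and 312 counts and fell in both strain comparisons too, by 1.18 and 1.27. The small subunits Uqcrb and Uqcr11 had the least low ratios of the complex in C57 F2 against C57 control, -0.48 and -0.65. The core proteins Uqcrc1 and Uqcrc2 had 795, 705, 429, 416 and 369.5 and 1262, 1054, 632, 697 and 585 counts, and the Rieske iron-sulfur protein Uqcrfs1 had 580.5, 528, 299, 439 and 322. For all 8 genes of the complex every comparison planned gave a ratio below 0 on the deposited scale, while Uqcrfs1 and Uqcrq turned above 0 in C57 DEHP against C57 control with equal totals, as Uqcrh did between the DEHP conditions of both strains with the upper quartile. Uqcrh has 2 processed pseudogenes in the annotation, and 12 with a symbol of the same families exist in all, none of them in the count table, so that reads of near-identical copies may be uncertain for members such as Uqcrh, Atp5k, Atp5l, Atp5c1, Ndufab1, Ndufs6 and Cox6c.

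The promoters of some of the genes that fell most are shown because genes of the respiratory chain are known for sharing binding sites of the factors NRF1, GABPA (an ETS protein) and YY1. RefSeq windows from 250 bases before to 50 bases after the start (GRCm38.p6) were found for 75 of 90 members, in 81 windows, and those without one include Atp5a1, Cox4i1, Cox4i2, Cox6a2, Cox6c, Ndufa2, Ndufa4l2, Ndufaf6, Ndufb9, Ndufs1, Sdhc, Uqcrb, Uqcrc2 and Uqcrq. Printed 5′ to 3′ are Uqcr10 (chr11:4704295-4704594, minus strand), Uqcrh (chr4:116075021-116075320, minus strand), Sdhb (chr4:140961021-140961320, plus strand), Ndufs5 (chr4:123718137-123718436, minus strand) and the testis isoform Cox7b2 (chr5:71548156-71548455, minus strand). Capitals mark GCGCNTGCG (NRF1), CCGGAAGT (ETS), AAGATGGC (YY1) or TGACGTCA (CRE) on either strand.
Uqcr10: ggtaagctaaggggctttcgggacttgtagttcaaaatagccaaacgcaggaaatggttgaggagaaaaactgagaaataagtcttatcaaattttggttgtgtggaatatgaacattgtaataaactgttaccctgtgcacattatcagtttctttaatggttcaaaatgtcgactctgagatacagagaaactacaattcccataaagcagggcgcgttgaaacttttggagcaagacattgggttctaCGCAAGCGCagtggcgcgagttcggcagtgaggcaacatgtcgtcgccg
Uqcrh: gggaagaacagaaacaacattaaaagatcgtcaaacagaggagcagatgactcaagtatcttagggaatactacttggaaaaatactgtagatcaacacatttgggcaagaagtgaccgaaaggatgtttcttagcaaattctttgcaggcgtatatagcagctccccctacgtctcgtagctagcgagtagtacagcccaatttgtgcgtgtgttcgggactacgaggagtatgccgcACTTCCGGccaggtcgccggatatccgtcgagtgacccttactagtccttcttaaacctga
Sdhb: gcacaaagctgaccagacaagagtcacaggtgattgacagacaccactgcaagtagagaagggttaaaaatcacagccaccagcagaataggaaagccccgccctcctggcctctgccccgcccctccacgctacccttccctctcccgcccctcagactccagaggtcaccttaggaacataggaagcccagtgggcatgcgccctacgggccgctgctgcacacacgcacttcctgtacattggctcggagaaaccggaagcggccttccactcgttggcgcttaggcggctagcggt
Ndufs5: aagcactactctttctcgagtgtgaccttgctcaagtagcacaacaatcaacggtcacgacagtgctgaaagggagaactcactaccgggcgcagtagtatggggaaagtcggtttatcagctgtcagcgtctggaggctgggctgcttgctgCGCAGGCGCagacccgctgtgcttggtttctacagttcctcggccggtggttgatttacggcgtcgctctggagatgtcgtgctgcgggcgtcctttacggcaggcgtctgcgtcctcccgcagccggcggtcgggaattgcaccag
Cox7b2: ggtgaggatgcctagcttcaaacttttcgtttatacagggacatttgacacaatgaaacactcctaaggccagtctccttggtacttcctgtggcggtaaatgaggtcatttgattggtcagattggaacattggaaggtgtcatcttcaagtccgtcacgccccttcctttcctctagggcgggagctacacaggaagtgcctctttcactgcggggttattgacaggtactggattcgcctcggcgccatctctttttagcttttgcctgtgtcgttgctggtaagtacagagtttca

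Uqcr10 and Ndufs5 held the NRF1 letters and Uqcrh held the ETS letters, each on the other strand, and Sdhb and Cox7b2 held none of the 4. Over all members the NRF1 letters were found in 28 of 81 member windows (34.6%) and 6.31% of all windows, and the YY1 letters in 12 of 81 member windows (14.8%) and 2.75% of all windows. The ETS letters were found in 5 of 81 member windows (6.17%) and 3.89% of all windows, the CRE letters in 4 of 81 member windows (4.94%) and 1.79% of all windows, GGGCGG (SP1) in 34 of 81 member windows (42.0%) and 35.7% of all windows and TATAAA in 8 of 81 member windows (9.88%) and 13.6% of all windows. Member windows were richer in G and C, with a median of 58.3% against 52.7%, and among the 7716 windows with a G and C content from 54.0% to 62.3%, the middle range of the members, 9.05% held the NRF1 letters, 3.65% the YY1 letters, 6.14% the ETS letters, 2.75% the CRE letters, 48.2% GGGCGG and 6.42% TATAAA. The members' shares cover all 81 member windows, also those outside this range, so these sets are unlike. No difference from the windows of this range is read for GGGCGG or TATAAA. The 38 members with NRF1, ETS or YY1 letters had a median of -0.71 in C57 F2 against C57 control, and the 36 tested members with a window but none of these letters had -0.61. Members with and without these letters thus both had low medians there. A match describes letters and does not show that a factor binds.

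Complex IV, cytochrome c oxidase, has several subunits with isoforms made in particular tissues. The common isoforms held nearly all counts, as Cox4i1 with 4519, 3126, 2710.4, 3806 and 3493, Cox6a1 with 699.7, 628, 581, 604 and 539 and Cox7a2 with 628, 577, 613, 483 and 469. Cox8a, with 647, 577, 619.5, 683 and 619 counts, was close to level, while Cox7a2 was lower in FVB/N. The ratios of Cox7a2 and Cox8a in C57 F2 against C57 control, -0.03 and -0.06, turned above 0 with equal totals. Cox7c had 133, 129, 60.2, 140.4 and 106 counts and fell in C57 F2 by 1.13 against C57 control and by 1.09 against C57 DEHP. Cox7b had 836, 770.3, 443, 406 and 299 counts and fell by 1.04 and 1.36 in the strain comparisons, as did Cox6b1 by 1.05 in the first and Cox5a by 1.13 in the second.

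The isoforms of heart and skeletal muscle, Cox6a2, Cox7a1 and Cox8b, were near the limit of detection. Cox6a2 had 3.08, 13.1, 7.40, 0.71 and 1.38 counts, Cox7a1 had 4.64, 14.4, 10.2, 4.95 and 3.40 and Cox8b had 4.87, 7.15, 4.40, 1.97 and 0.982. All 3 were highest in C57 DEHP, and the first and last were at 3 counts or fewer in both FVB/N conditions. Cox6a2 rose by 1.79 and Cox7a1 by 1.45 in C57 DEHP against C57 control, and neither reached 1 with a pseudocount of 10. The differences were 10.1 and 9.76 counts beside model SDs of 8.81 and 7.11. In the same comparison 6 of 9 striated muscle markers tested rose, with a median of 1.29. Myh4 had 1183, 2903, 719, 227 and 135 counts and Ckm 216, 556, 252, 67.3 and 44.0. Not all of these markers peaked in C57 DEHP. Myh1 had 77.4, 177, 413, 167 and 62.6 counts and Myh7 19.2, 32.0, 82.9, 52.5 and 16.0, both highest in C57 F2. Myh6 was highest in FVB DEHP, with 10.8 counts. The part of muscle RNA in the isoforms was not tested. In FVB DEHP against C57 DEHP, Cox7a1 fell by 1.81, Cox6a2 was at least 4.38-fold lower, taking 3 counts as the limit, and 8 of 10 striated muscle markers fell.

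Cox7b2 is an isoform made in the testis. It had 22.6, 28.4, 14.6, 3.15 and 4.84 counts and fell by 2.51 in FVB/N between vehicle conditions and fell by 2.33 between DEHP conditions. The first difference was -19.5 counts beside a model SD of 8.89. In these comparisons all 12 sperm and spermatid markers fell, with medians of -3.27 and -2.71. The other testis isoforms, which the choice of members left out, were Cox8c with 64.3, 69.0, 44.5, 14.5 and 20.1, Cox6b2 with 14.9, 17.2, 16.5, 9.97 and 8.42 and the cytochrome c gene Cyct with 12.5, 7.15, 6.53, 1.87 and 5.42 counts. Cox8c and Cox7b2 were low in both FVB/N conditions, where sperm markers were low, while Cyct and Cox6b2 had under 20 counts in every condition, and the part of germ cell RNA in this was not tested. Against C57 F2, Cox7b2 fell by 1.91 and 1.41 in FVB control and FVB DEHP, and 12 and 10 of the 12 sperm markers fell.

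Cox4i2, the isoform known from lung and vessel wall, had 6.65, 4.80, 9.63, 40.7 and 47.6 counts and was the only member to rise in FVB/N against the re-analysed conditions, by 2.45 and 3.07. Its model SDs were large, and the differences of 34.0 and 42.8 counts did not exceed their model SDs of 37.9 and 47.2. The gene lies at chr2:152754173-152765037. As a share of both isoforms, Cox4i2 made up 0.147% of counts in C57 control and 1.34% in FVB DEHP. Ndufa4l2, a homologue of Ndufa4, had 16.6, 16.0, 12.1, 9.78 and 10.6 counts.

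**Figure D4:**
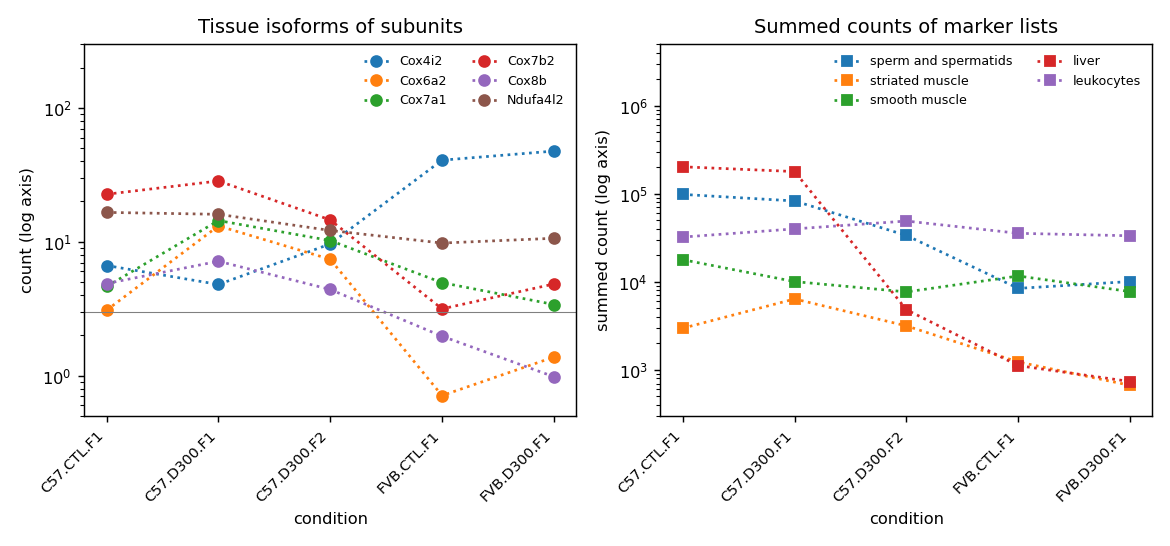
Counts of tissue isoforms (left, log axis, grey line at 3 counts) and summed counts of marker lists (right, log axis) in the 5 conditions, 1 pooled value each, with dotted lines only to guide the eye. Cox6a2 and Cox7a1 peak in C57 DEHP, as the sum of the striated muscle markers does. Cox7b2 and the sum of the sperm markers are lowest in FVB control, and Cox4i2 is highest in both FVB/N conditions.

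Complex V makes ATP in its F1 head, which the Fo ring in the membrane drives. Atp5b, the catalytic subunit of the head, had 6635, 4677, 2585, 3384 and 2795 counts, the most of any member in C57 control, and fell by 1.36 in C57 F2 against C57 control, with a difference of -4049.9 counts beside a model SD of 3019. Atp5a1, its partner in the head, had 3678, 3872, 2530.4, 2614 and 2295 counts, and Atp5c1, the central stalk, had 4064, 2522, 1597, 1928 and 1534. Atp5c1 fell by 1.35 in C57 F2 and by 1.08 in FVB control, both against C57 control, whereas Atp5a1 reached the threshold in none of the 6 planned comparisons. The ring subunit is made from 3 genes that give the same mature protein. Atp5g1 had 342, 296, 217, 228 and 210.2 counts, Atp5g2 had 276, 243, 226, 319 and 297 and Atp5g3 had 630, 465, 265, 405 and 331. Atp5g3 fell by 1.25 in C57 F2 against C57 control, and Atp5g2 was highest in the FVB/N conditions. In all 3 newly made conditions the counts of Atp5g2 came closer to those of Atp5g3 than in C57 control and C57 DEHP. Among the small subunits Atp5k had 467, 269, 220.3, 394 and 378 counts, low in C57 DEHP and C57 F2 and closer to C57 control in FVB/N, and fell by 1.08 in C57 F2 against C57 control.

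Other genes of the pathway were described beside the members. The counts of falls in these lists stand beside 1.15, 0.619, 10.2, 8.35, 18.8 and 19.9% of all genes in the 6 comparisons. Of 8 outside the choice of members (Cyc1, Cycs, Cyct, Cox6b2, Cox8c, Atpif1, Usmg5 and 2010107E04Rik), the medians were -0.29, -0.19, -0.65, -0.50, -0.62 and -0.51, 0 rose in any of the 6 comparisons, and 0, 0, 1, 0, 2 and 2 fell. Atpif1, the inhibitor of the ATP synthase, had 2267, 1574, 1455, 2122 and 1800.5 counts, and somatic cytochrome c, Cycs, had 322, 238, 204, 385 and 355. Of 30 further assembly factors, the medians were -0.08, -0.02, -0.18, -0.19, -0.01 and -0.06, 0 rose, and 0, 0, 3, 2, 2 and 1 fell. They thus lay nearer to all genes than the members did. Atpaf1, which assembles the F1 head, went the other way with 2656, 5144, 5155, 3039 and 5139 counts. It was higher in C57 DEHP, C57 F2 and FVB DEHP than in both vehicle conditions. Its ratios against the vehicle condition of the strain were 0.95 in C57 DEHP, 0.76 in FVB DEHP and 0.96 in C57 F2, below the threshold. In these comparisons 2, 0 and 1 of the 30 were higher beyond their model SD. The difference of Atpaf1 in FVB/N thus did not exceed its model SD. Uqcc2, an assembly factor of complex III, had 422, 324, 162, 93.1 and 99.7 counts and Sco2, which brings copper to complex IV, had 234, 195, 83.8, 120.5 and 101.

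The 13 genes of the tricarboxylic acid cycle had medians of -0.02, -0.16, -0.72, -0.70, -0.51 and -0.85, 0 rose, and 0, 0, 4, 0, 4 and 5 fell. Citrate synthase, Cs, had 1405, 1389, 958, 851 and 624 counts and Fh1, fumarase, had 784, 641, 327, 315 and 275. The 7 regulators had medians of 0.08, -0.05, -0.31, -0.45, -0.05 and -0.29, with 0 past the threshold in any of the 6 comparisons. Among them Ppargc1a had 63.5, 67.3, 43.8, 37.3 and 40.0 counts, Nrf1 had 137, 145, 162, 132 and 149 and Tfam, which packs mitochondrial DNA, had 218, 197, 143, 158 and 143. In C57 DEHP against C57 control neither median lay as low as that of the members, while in C57 F2 against C57 DEHP and between the DEHP conditions the cycle genes lay lower than the members. The cycle genes also lay slightly lower in FVB DEHP against FVB control (-0.16, beside -0.15 for the members). The same held in C57 F2 against C57 control (-0.72, beside -0.71).

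The ribosomal proteins also had medians below 0. The 77 mitochondrial ribosomal proteins had medians of -0.20, -0.05, -0.43, -0.22, -0.33 and -0.20, and 1, 0, 10, 1, 8 and 2 of them fell, while 0 rose. Of all genes, 1.15, 0.619, 10.2, 8.35, 18.8 and 19.9% fell in the same order. Between strains a smaller share of the mitochondrial ribosomal proteins than of all genes fell. The 81 proteins of the cytosolic ribosome had medians of -0.29, -0.16, -0.37, -0.13, -0.23 and -0.13, 0, 1, 0, 0, 1 and 1 rose, and 0, 0, 11, 1, 9 and 4 fell. In C57 DEHP against C57 control and in FVB DEHP against FVB control, the cytosolic ribosomal median was as low as that of the respiratory chain genes (-0.24 and -0.15), so that the lower values after DEHP in the first generation were not particular to respiratory chain genes. In both comparisons of C57 F2 with the re-analysed conditions and in both strain comparisons with them, the respiratory chain median lay below those of both ribosomal lists. It did not in FVB control and FVB DEHP against C57 F2, where it was 0.15 and 0.02, beside 0.09 and 0.07 for the mitochondrial and 0.12 and 0.01 for the cytosolic list. No difference between lists was tested. Genes encoded in mitochondrial DNA had 0 entries in the count table and were not analysed here.

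**Figure D5:**
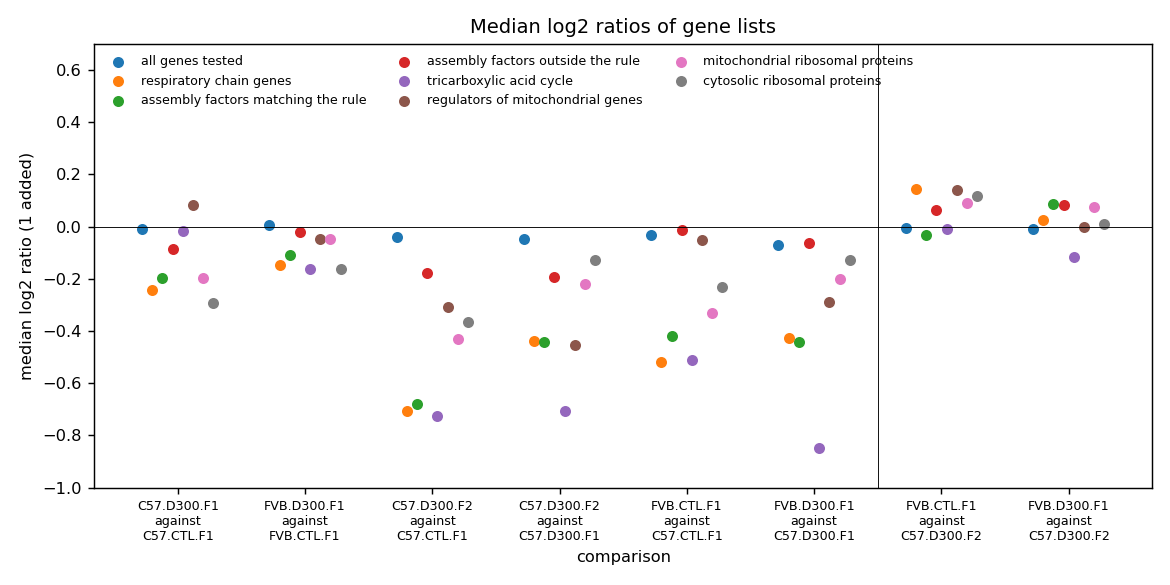
Median log2 ratio (y axis, 1 added to each count) of the respiratory chain genes, of all genes tested and of 6 other lists (colours) in each comparison (x axis), with the 2 comparisons among newly made libraries on the right. Respiratory chain and tricarboxylic acid cycle genes lie side by side in C57 F2 against C57 control (-0.71 and -0.72), and the cytosolic ribosomal proteins lie beside the respiratory chain genes in C57 DEHP against C57 control (-0.29 and -0.24).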

How the data were processed

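Sperm RNA of 5 conditions with 5 libraries each was sequenced. Per the submitters' notes, reads were called with CASAVA 1.8.2, clipped of the RA3 adapter, kept from 18 bases on, mapped to mm10 with TopHat in the strand-specific mode fr-secondstrand, and quantified with Cuffdiff of the Cufflinks suite. The signal deposited by the authors is 1 estimated fragment count per gene and condition, not divided by gene length, beside a variance of that count under the model. The annotation release and the Cuffdiff options, scaling between libraries among them, were not given in the sources used here. The table had 71 genes with a failed estimate in at least 1 condition, none of them a member. Values of 2 single genes, 1 of them a member, are not reported here, while sums and medians hold them.

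Computed here were log2((a+1)/(b+1)) where 1 of both conditions reached 10 counts, with a call from 1 log2 unit on, medians, sums and shares, and model SDs as the root of the summed variances. A shift of 0.5 log2 units between settings was taken as moved, and 3 counts as the limit of detection. There is no test, since each condition has 1 value. Lengths are merged exons of the GENCODE M21 basic annotation (GRCm38), and Atp5sl was placed by its RefSeq synonym. Promoter windows came from RefSeq GRCm38.p6.

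Members and lists were chosen with earlier results of these data known. Genes were named by a rule, namely the 3 members per complex with the most counts per kilobase in C57 control, the 3 largest rises and falls per comparison among members with at least 100 counts, tissue isoforms with their partners, and members at 3 counts or fewer. Other genes, among them Ndufs5, Ndufs7, Ndufs8, Ndufv1, Ndufaf6 and Atpaf1, were chosen after their values were seen. Alternatives were other scalings (equal totals, median of ratios, upper quartile), minimum counts of 0 and 100, pseudocounts of 0.1 and 10, thresholds of 0.5 and 2, differences beyond their model SD, and subunits only. The comparison of FVB/N with C57 F2 was added after seeing the data. Scripts were tested on simulated data and used Python 3.11.15, numpy 2.4.6, pandas 2.3.3 and matplotlib 3.10.9.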

Additional observations from a re-analysis of the deposited data

Results flagged for a closer look

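Ndufs5 was flagged because its log2 ratios after DEHP had opposite signs in the 2 strains and differed by at least 1, which no other member's did. The log2 ratio of the DEHP to the vehicle condition was -0.52 in C57BL/6J and 0.53 in FVB/N, a difference of 1.04, with 78.1 and 54.3 counts in C57 control and C57 DEHP and 18.6 and 27.2 counts in FVB control and FVB DEHP. Both differences, -23.8 and 8.64 counts, lie within their model SDs of 27.5 and 15.4, and of 15720 genes 508 were higher and 357 lower by at least 1 log2 unit in the same difference. The difference between strains was not tested, since each condition has 1 value.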

How the results depend on the processing

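The members' median kept its sign in all 6 comparisons under every other scaling, minimum count, pseudocount and choice of members, from -0.28 to -0.09 for C57 DEHP against C57 control, -0.28 to -0.14 for FVB DEHP against FVB control, -0.75 to -0.39 for C57 F2 against C57 control, -0.44 to -0.24 for C57 F2 against C57 DEHP, -0.53 to -0.33 for FVB control against C57 control and -0.52 to -0.29 for FVB DEHP against C57 DEHP. Of 240 complex medians 1 changed sign, that of complex IV in C57 DEHP against C57 control (0.01 with equal totals), and of 1718 values of single genes 10 moved, all at other pseudocounts, and 40 changed sign, all with another scaling. With C57 F2 in place of the re-analysed C57BL/6J condition, chosen after seeing the data, the medians came to 0.15 for FVB control and 0.02 for FVB DEHP, and 3 and 2 members were higher and 1 and 2 lower. The cause was not tested.

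Counts of calls moved as follows, with the share of all genes in brackets, and the cause was not tested where the setting does not itself change the number of genes past the threshold. With equal totals, C57 F2 against C57 control had 1 higher and 8 lower (all genes 9.21% and 6.42%), C57 F2 against C57 DEHP had 1 and 0 (4.38% and 6.34%), and FVB control against C57 control had 5 lower (15.9%). With the upper quartile these were 1 and 9 (7.21% and 7.35%), 1 and 0 (4.63% and 6.06%), and 6 lower (16.3%), and FVB DEHP against C57 DEHP had 6 lower (17.4%). With a minimum of 100 counts, 0 were higher in C57 DEHP against C57 control (0.461%) and in both strain comparisons (5.22% and 10.1%), and 6 were lower in FVB DEHP against C57 DEHP (17.6%). With no minimum or a pseudocount of 0.1, 1 was higher in C57 F2 against C57 control (7.39% and 4.56%). With a pseudocount of 10, 0 were higher in C57 DEHP against C57 control (0.434%) and 1 was lower in C57 F2 against C57 DEHP (6.65%). Where the difference had to exceed its model SD, 0 were higher in both strain comparisons (6.50% and 10.5%). At a threshold of 0.5, 13 were lower in C57 DEHP against C57 control (6.04%), 1 higher and 61 lower in C57 F2 against C57 control (14.6% and 23.1%), 35 lower in C57 F2 against C57 DEHP (20.7%), 1 higher and 1 lower in FVB DEHP against FVB control (9.31% and 4.26%), 2 higher and 45 lower in FVB control against C57 control (21.8% and 30.3%) and 3 higher and 41 lower in FVB DEHP against C57 DEHP (25.5% and 32.9%). At a threshold of 2, 0 were higher or lower in C57 DEHP against C57 control (0.0357% and 0.256%), 0 lower in both comparisons of C57 F2 (3.61% and 3.30%) and 2 lower in each strain comparison (8.88% and 7.67%). The other 95 counts of calls stayed within 1.5 times the main count.

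No paired analysis was possible because the deposited table holds 1 pooled value per condition. Members near 10 counts, mostly tissue isoforms, are limited by depth.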
